A study of Mus musculus with 25 samples.

Results

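The knockdown experiment held 8 RNA libraries from hippocampal neurons of aged mice, out of 25 libraries in the series. Nuclei were stained with Hoechst and for NeuN, the neuronal nuclear antigen encoded by Rbfox3, and sorted by flow cytometry. The 4 control libraries, numbered 1, 2, 3 and 5, came from male C57BL/6 mice aged 18 months that had received virus with a short hairpin RNA against luciferase, a firefly enzyme with no mouse counterpart, on both sides of the hippocampus. The 4 libraries labelled Ftl1KD, numbered 1, 3, 4 and 5, came from mice of the same sex, strain and age that had received virus with hairpins against Ftl1. The study's design text calls the virus a lentivirus and its injection methods name an adeno-associated virus, and no neuron-specific promoter is named for the hairpins. Members are the genes whose normalized count averaged at least 10 over the 8 libraries, which held for 1460 of the 24411 genes in the table. The mean was taken over both groups, so that a gene could reach this limit through 1 group alone. A difference is given throughout as the mean log2(normalized count + 1) of the Ftl1KD libraries minus that of the controls, so that 1 is a doubling.

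Ftl1 encodes the light chain of ferritin, the cage of light and heavy chains in which cells store iron, and the study asked how neurons of old mice change when its amount is reduced. A growing neurite is built on microtubules, polymers of α- and β-tubulin, and on actin filaments at its growth cone. Stathmins and the collapsin response mediator proteins (CRMPs) control how tubulin is added and removed, and these genes are strongly used by young neurons. Mature neurons instead transcribe many very long genes for receptors, ion channels and adhesion molecules of the synapse, and their nuclei retain long noncoding RNAs such as Malat1.

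The libraries were shallow, with 68092 to 358560 reads in the controls and 48902 to 97104 in Ftl1KD, beside 7969282 to 17034325 in the other 17 libraries of the series. The ribosomal RNA precursor Rn45s took 31.9% to 55.3% of the control reads and 30.3% to 34.5% of the Ftl1KD reads. Scaling to total reads without Rn45s gave 192 genes called higher and 175 lower, where the fit reported below gave 154 and 200. The part of Rn45s in the differences below was not tested further. Log values of genes correlated at 0.733 to 0.813 between Ftl1KD libraries, at 0.606 to 0.774 between controls and at 0.359 to 0.595 between a control and an Ftl1KD library. Rbfox3 itself averaged 8.62 normalized counts, under the limit for testing, with 10.8 ± 5.30 in the controls and 6.45 ± 3.57 in Ftl1KD (SD, n = 4 each).

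Ftl1 (chr7:45457944-45459884, minus strand, GRCm38) went against the label. The control libraries 1, 2, 3 and 5 held 49.1, 45.6, 56.2 and 24.2 normalized counts of Ftl1, and the Ftl1KD libraries 1, 3, 4 and 5 held 117, 106, 109 and 140. Every library labelled Ftl1KD was above every control. The difference was 1.47 ± 0.25 (SE, 4 libraries in each group; limma adjusted p = 0.00022), and an exact two-sided permutation test over the libraries gave p = 0.0286, the smallest that 4 against 4 allows. These values rested on 253 control reads and 395 Ftl1KD reads of the gene. Fth1, the ferritin heavy chain, lay at 74.6, 91.2, 82.4 and 81.1 in the controls and at 97.8, 136, 106 and 98.4 in Ftl1KD. The groups of Fth1 did not overlap (exact two-sided permutation p = 0.0286). Of the 1460 genes tested 11.8% were likewise higher in Ftl1KD without overlap. The difference of Fth1, 0.40 ± 0.21, missed the threshold of the fit over all genes (limma adjusted p = 0.16). The group names below are therefore those of the labels, and every direction is drawn from libraries labelled Ftl1KD that held more Ftl1 RNA than their controls. Whether labels or columns were exchanged was not tested, and if they were, every sign below would turn. Ferritin, tubulin and actin genes have close paralogs or processed copies in the genome, so that their counts also depend on how the authors' program divided shared reads.

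The 250 bases before the transcription start are shown for 5 genes on which the results turn, namely Ftl1, the tubulins Tuba1a and Tubb5, the sterol enzyme Hmgcs1 and the long noncoding RNA Malat1. They are RefSeq sequences of GRCm38.p6 at chr7:45459887-45460136 (minus strand), chr15:98953502-98953751 (minus), chr17:35838302-35838551 (minus), chr13:119690101-119690350 (plus) and chr19:5802673-5802922 (minus). Capitals mark the CCAAT box, searched as CCAAT on both strands (printed as ATTGG where it lies on the opposite one) and present before 33.8% of all 32851 starts in the table, and the core of the sterol response element, searched as CACCCCAC on both strands and present before 2.58%. No TATAAA was found in these 5 stretches. A match is a stretch of letters and not a bound site.
Ftl1: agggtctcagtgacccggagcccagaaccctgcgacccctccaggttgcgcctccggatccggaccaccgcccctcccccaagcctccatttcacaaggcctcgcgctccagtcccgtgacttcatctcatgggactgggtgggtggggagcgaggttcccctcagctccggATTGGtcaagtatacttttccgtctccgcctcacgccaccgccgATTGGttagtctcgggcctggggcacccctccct
Tuba1a: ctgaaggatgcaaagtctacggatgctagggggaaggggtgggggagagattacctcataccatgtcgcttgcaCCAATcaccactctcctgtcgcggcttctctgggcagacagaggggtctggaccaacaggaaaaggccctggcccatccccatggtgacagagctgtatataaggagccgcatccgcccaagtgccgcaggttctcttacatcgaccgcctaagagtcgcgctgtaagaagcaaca
Tubb5: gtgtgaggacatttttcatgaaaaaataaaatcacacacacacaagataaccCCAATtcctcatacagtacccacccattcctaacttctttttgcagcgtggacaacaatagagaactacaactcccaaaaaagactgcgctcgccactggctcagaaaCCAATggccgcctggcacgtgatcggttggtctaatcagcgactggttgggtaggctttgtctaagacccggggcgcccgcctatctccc
Hmgcs1: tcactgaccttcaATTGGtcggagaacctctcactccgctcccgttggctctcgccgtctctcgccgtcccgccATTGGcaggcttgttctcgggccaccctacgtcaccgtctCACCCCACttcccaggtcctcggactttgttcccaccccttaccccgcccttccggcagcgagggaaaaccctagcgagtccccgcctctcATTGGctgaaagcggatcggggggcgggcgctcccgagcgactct
Malat1: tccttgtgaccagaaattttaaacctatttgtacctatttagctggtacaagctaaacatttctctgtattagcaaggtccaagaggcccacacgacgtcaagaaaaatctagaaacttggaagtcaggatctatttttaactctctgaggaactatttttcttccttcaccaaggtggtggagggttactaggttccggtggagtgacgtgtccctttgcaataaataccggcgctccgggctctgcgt
The Ftl1 stretch held CCAAT at 78 and 34 bases before the start, on the opposite strand. In Tuba1a the box lay 176 bases and in Tubb5 198 and 90 bases before the start. GENCODE and RefSeq place the start of Tuba1a differently: the gene as located below by GENCODE reaches to 98953703, so that most of the Tuba1a stretch, its box included, lies inside it. Hmgcs1 held 3 copies and the sterol element core 136 bases before its start. Malat1 held neither. Tubb2b, Fdft1, Fdps and Sqle are named only.

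Of the 1460 genes, 154 (10.5%) were called higher and 200 (13.7%) lower in Ftl1KD at a limma adjusted p of at most 0.05, and the median difference over all of them was -0.01. The groups did not overlap for 173 genes (11.8%) higher in Ftl1KD and 174 (11.9%) lower, and 276 of the 354 called genes were among these. Called genes rose by a median of 1.24 and fell by a median of 1.35 on the log2 scale. With each library centred on the median of the tested genes, which moved the median difference by 0.11, the split became 197 higher and 161 lower. Without the deepest controls, 2 and 5, 70 genes were called higher and 42 lower, and all 354 calls kept their direction. The remaining libraries had also taken part in choosing these calls, so the kept directions are no independent support. Among genes whose library values are given below, Pdha1, Fabp7, Hspd1 and Slc1a3 reached the limit for testing through Ftl1KD alone. Adgrl1, Grin2a, Unc13a and Arc reached it through the controls alone, and so did Miat, whose Ftl1KD libraries held 6, 6, 1 and 2 reads. Counts of called list members include such genes, and other called genes are not marked in this way. Gene lists are given below by their calls with limma. Where calls went in 1 direction only, limma, edgeR and DESeq2 made 0 calls in the other, and 0 members had an unadjusted p under 0.05 there, except as follows. Map1a and Ndufs7 were lower in edgeR, Psma6 and Psmd8 higher in edgeR, and Fau and Calr lower at an unadjusted limma p under 0.05.

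**Figure D1:**
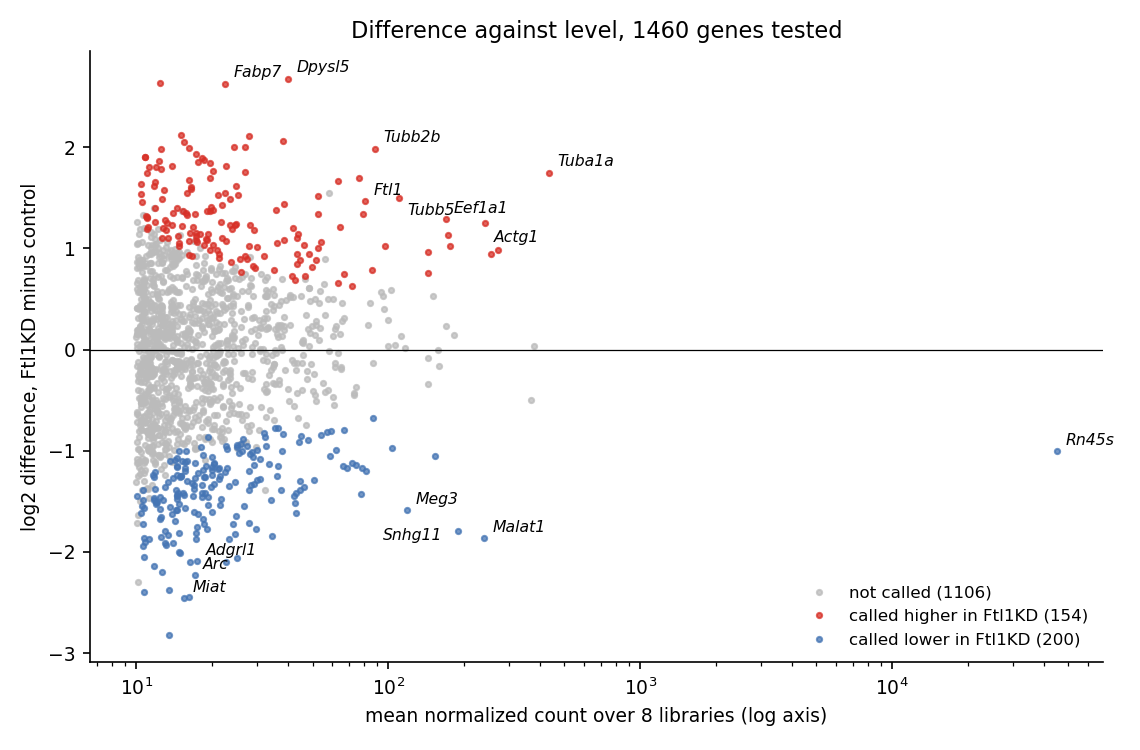
Each point is 1 of the 1460 genes tested, with its mean normalized count over the 8 libraries on a log axis and the log2 difference, Ftl1KD minus control. Red points (154) were called higher and blue points (200) lower at a limma adjusted p of at most 0.05. Tuba1a was the most abundant gene called higher, and Malat1 and Snhg11, at mean counts of 240 and 189, were the most abundant genes called lower after Rn45s.

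Tubulin genes rose. Of the 9 members of the tubulin list that were tested, out of 16, 5 (55.6%) were called higher, beside 10.5% of all genes. The median difference was 1.13. With controls 2 and 5 left out, 6 were called higher. Tuba1a (chr15:98949837-98953703), the main α-tubulin of growing neurons, had the smallest p of the 1460 genes. Its control libraries held 242, 217, 208 and 141 normalized counts and its Ftl1KD libraries 617, 686, 665 and 710, so that the lowest Ftl1KD library was far above the highest control. The difference was 1.75 ± 0.19 (limma adjusted p = 1e-06). Tubb2b (chr13:34126748-34130466), a β-tubulin whose mutation disturbs cortical development, lay at 42.5, 28.2, 59.9 and 19.2 in the controls and at 138, 132, 140 and 147 in Ftl1KD. The 4 Ftl1KD libraries were tightly grouped and the controls spread about 3-fold, and the difference was 1.99 ± 0.27 (limma adjusted p = 1.3e-05). Tubb5, Tubb3 and Tubb2a, further β-tubulins, rose by 1.5, 1.34 and 1.13. Tuba1b was at 0.57 and missed the threshold (limma adjusted p = 0.076).

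Stathmins and CRMPs rose as well, with 6 (85.7%) of 7 tested members of 9 called higher, beside 10.5% of all genes. The list median was 1.67. Dpysl5 (chr5:30711564-30799375), the gene with the largest rise of any called, lay at 17.9, 11.3, 18.7 and 1.67 normalized counts in the controls and at 49.9, 61.3, 80.2 and 79.3 in Ftl1KD. Its groups did not overlap, and the difference was 2.68 ± 0.42 (limma adjusted p = 8.7e-05). Without controls 2 and 5 it was 1.8 (limma adjusted p = 0.0012). Stmn2 (chr3:8509360-8561606), a stathmin of axons that promotes their regrowth, lay at 45.3, 26.2, 31.8 and 18.8 in the controls and at 103, 97.4, 78.3 and 103 in Ftl1KD. The difference of Stmn2 was 1.67 ± 0.26 (limma adjusted p = 8.7e-05). Dpysl3 and Crmp1, further CRMPs, rose by 2.06 and 1.69, and Stmn1, the stathmin of dividing and newborn cells, rose by 1.52. Dpysl2, which carries tubulin to the tips of axons, rose by 1.04. Stmn3 was at 0.46 and was not called, although its groups did not overlap.

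**Figure D2:**
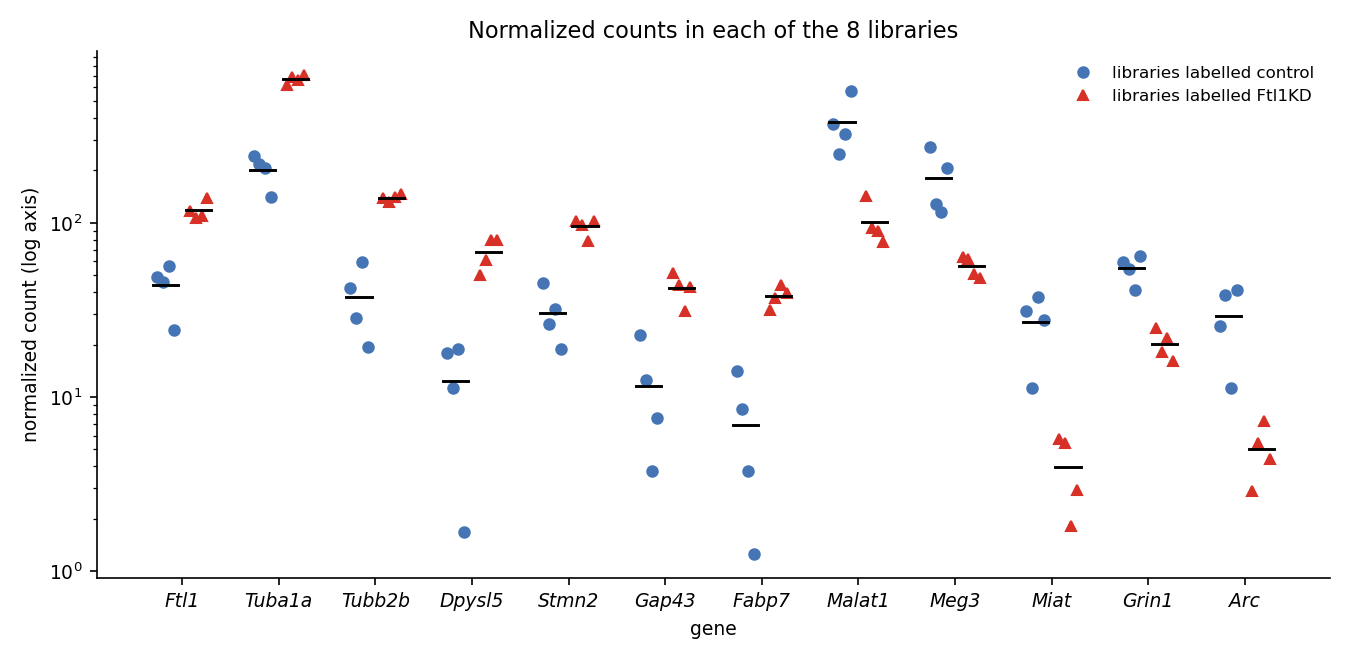
Normalized counts on a log axis of 12 genes in each of the 4 control libraries (blue circles) and the 4 libraries labelled Ftl1KD (red triangles), with the mean of each group as a bar. For each of these genes, Ftl1 included, the groups do not overlap.

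Growth cone and developmental genes moved the same way. Both tested growth cone phosphoproteins rose by 2.00, Gap43, which marks axon growth and regeneration, and Marcksl1, an actin-binding substrate of protein kinase C. Gap43 (chr16:42248442-42340651) lay at 22.7, 12.5, 3.75 and 7.52 in the controls and at 51.8, 44.2, 31.0 and 42.6 in Ftl1KD. Of 39 genes listed for developing and newborn neurons 11 were tested, with a median of 1.41. Of those tested, 9 (81.8%) were called higher (8 without controls 2 and 5), beside 10.5% of all genes. Besides Dpysl3, Crmp1, Stmn2, Tubb3 and Gap43, these were Nnat (1.42), an imprinted gene of the developing brain, Nrep (1.41), a gene of regenerating neurons, the axonal adhesion molecule L1cam (1.38) and Mllt11 (1.03). Rtn1, an endoplasmic reticulum protein of neurons, was at 0.53 and missed the threshold (limma adjusted p = 0.054). The defining transcripts of newborn neurons were too rare to test. Dcx averaged 2.65 normalized counts in the controls and 5.50 in Ftl1KD, Sox11 had 1.46 and 3.00, Neurod1 had 1.25 and 0.45, and Sox4 had 0.31 and 0. Of the 28 members of the list under the limit for testing, 15 had a higher mean in Ftl1KD, 11 a lower one and 2 were at 0 reads in all 8 libraries. The summed normalized counts of 6 newborn neuron markers were 6 to 9 in the controls and 5 to 13 in Ftl1KD.

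Of 26 progenitor and cell cycle genes 3 were tested and 2 were called higher, beside 10.5% of all genes. Fabp7 (chr10:57784881-57788450), a fatty acid binding protein of radial glia and young astrocytes, lay at 14.2, 8.47, 3.75 and 1.25 in the controls and at 31.6, 37.0, 43.7 and 39.7 in Ftl1KD. All Ftl1KD libraries were above the controls, at a difference of 2.63 ± 0.43 (limma adjusted p = 0.00012) from 41 control and 125 Ftl1KD reads. Ccnd2, a cyclin of neural progenitors that neurons also use, rose by 1.22, a call lost without control 5, Ftl1KD 3 or Ftl1KD 5 (adjusted p up to 0.12 by limma). Of the 23 members under the limit for testing, 14 had a higher mean in Ftl1KD, 7 a lower one and 2 were at 0 reads. The intermediate filament gene Vim averaged 2.26 and 10.4 normalized counts, and the Notch target Hes5 1.83 and 0.47. With controls 2 and 5 left out, 1 of the 3 tested was called.

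The rest of the cytoskeleton changed in few members. Of 11 tested genes for microtubule-associated proteins 3 rose, with a list median of 0.19 (1 called without controls 2 and 5, where Map1b and Mapt had adjusted p of 0.051 and 0.11 by limma), namely the plus-end protein Mapre2 (1.90), the neurite protein Map1b (1.03) and the axonal protein Mapt (1.10). Among 17 motor and adaptor genes the dynein light chains Dynlt1b (2.64) and Dynlrb1 (1.11) rose and the dynein heavy chain Dync1h1 fell by 0.78, with a list median of 0.16 (1 higher and 0 lower without controls 2 and 5). Actin genes included the most abundant members. Actg1, cytoplasmic γ-actin, rose by 1.25, from an average of 145 ± 42.2 (SD, n = 4) in the controls to 340 ± 55.3 in Ftl1KD. Actb, β-actin, rose by 0.98, from 184 ± 28.4 to 363 ± 48.1, and the actin-severing protein Dstn rose by 1.81. The other 19 of 22 tested actin genes were not called, and their list had a median of 0.23. Called higher were 27.3% of microtubule-associated, 11.8% of motor and 13.6% of actin genes, beside 10.5% of all genes. The motor and actin shares were thus near that of all genes. Over the 70 tested genes of the cytoskeletal lists together, 21 (30%) were called higher, beside 10.5% of all genes, and 1 was called lower. The calls of Dynlrb1 and Dync1h1 were lost without each of 5 and 6 libraries (limma adjusted p up to 0.18), and that of Dstn without Ftl1KD 3 or 5 (0.057 and 0.058).

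Genes of energy metabolism lay mostly above 0. Of the 48 tested subunits of oxidative phosphorylation 44 were above 0 and 9 (18.8%) were called higher, with a median of 0.46. Of all genes tested 49.45% were above 0 and 10.5% were called higher. The ATP synthase, which makes ATP from the proton gradient, had the highest median, 0.79, with 5 of 13 members called. Atp5b, its catalytic β subunit, lay at 114, 129, 129 and 92.0 in the controls and at 223, 224, 253 and 239 in Ftl1KD, a difference of 1.02 ± 0.20 (limma adjusted p = 0.00054). The membrane stalk subunit Atp5f1 rose by 1.70, Atp5o by 1.07 and Atp5a1 by 0.79. Complexes II and III had a median of 0.65 with Uqcrc2 (1.09), Sdhd (1.29) and Sdha (0.90) called, complex I had a median of 0.36 with Ndufa10 (1.34) called, and complex IV a median of 0.40. No complex IV gene was called by limma, edgeR or DESeq2, and 2 of the 9 tested were higher at an unadjusted limma p under 0.05. Calls of Sdha, Sdhd, Atp5o and Atp5a1 were lost without at least 1 library (limma adjusted p up to 0.14). Leaving out controls 2 and 5, the calls numbered 3 for the ATP synthase and 0 for complexes II and III, whose median was then 0.64. The genes encoded by mitochondrial DNA were not analysed here.

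Of 28 tested genes of glycolysis and the citric acid cycle, 7 (25%) were called higher and 2 (7.14%) lower, with a median of 0.42. Of all genes 10.5% were called higher and 13.7% lower. Without controls 2 and 5, 3 were called higher and 1 lower. Pdha1, which feeds pyruvate into the cycle, lay at 6.61, 5.24, 7.49 and 4.18 in the controls and at 32.6, 21.6, 21.9 and 29.4 in Ftl1KD. The groups were well apart, at a difference of 2.00 ± 0.36 (limma adjusted p = 0.00043). Citrate synthase Cs rose by 1.23 and the isocitrate dehydrogenase subunit Idh3a by 1.24. The glycolytic enzymes Eno2 and Pfkl, neuronal enolase and liver-type phosphofructokinase, fell by 1.00 and 1.19. Without Ftl1KD 5 the call of Idh3a was lost (limma adjusted p = 0.066), and that of Pfkl was lost without any of 4 libraries (0.063 to 0.10).

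Among genes for making and folding proteins, 54.2% of the tested chaperones, 8.51% of ribosomal proteins and 5.88% of translation factors were called higher, beside 10.5% of all genes. Eef1a1, the elongation factor that brings tRNA to the ribosome, rose by 1.29, from 98.6 ± 21.5 to 239 ± 18.3 (SD, n = 4 each; limma adjusted p = 9.5e-05). It was the 1 member called of 17 tested translation factors, whose median was 0.35. Of 47 tested ribosomal proteins 42 lay above 0 and 4 were called higher (Rps4x 1.35, Rps2 0.73, Rpsa 0.69 and Rpl7 0.92), with a median of 0.46, and each of these 4 calls was lost without at least 3 libraries (limma adjusted p up to 0.17), and 0 of the 47 were called without controls 2 and 5. Of 24 tested chaperones 13 were called higher, with a median of 0.94 (5 called and a median of 0.82 without controls 2 and 5). The mitochondrial chaperonin Hspd1 lay at 5.66, 5.65, 1.87 and 5.43 in the controls and at 18.2, 19.8, 18.2 and 25 in Ftl1KD, a difference of 1.98 ± 0.46 (limma adjusted p = 0.0026). Hsp90aa1, the inducible cytosolic Hsp90, rose by 1.21, the chaperonin ring subunit Cct8 by 1.53 and the constitutive Hsp70 Hspa8 by 0.94. Of 24 tested proteasome and ubiquitin genes 0 were called by limma or DESeq2 and 2 by edgeR, with 6 higher at an unadjusted limma p under 0.05, 19 above 0 and a median of 0.40.

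Cholesterol synthesis had 8 tested members of 23, 4 (50%) of them called higher (2 without controls 2 and 5), beside 10.5% of all genes. The list median was 1.01. Hmgcs1, which makes the precursor of mevalonate and whose promoter stretch is printed above, lay at 14.2, 3.23, 33.7 and 3.34 in the controls and at 33.6, 46.9, 49.2 and 39.7 in Ftl1KD. Its groups touched, since control 3 held 33.7 and Ftl1KD 1 held 33.6, and the difference was 2.11 ± 0.45 (limma adjusted p = 0.0014). Without controls 2 and 5 it was 0.90 (limma adjusted p = 0.094). Squalene synthase Fdft1 rose by 1.68, farnesyl diphosphate synthase Fdps by 1.37 and squalene epoxidase Sqle by 1.09, a call that was lost without Ftl1KD 5 (limma adjusted p = 0.050). Of the 6 tested iron genes Ftl1 alone was called. Among 8 tested genes of antioxidant defence the peroxiredoxins Prdx1 and Prdx6 rose by 1.35 and 1.14, calls lost without either of 2 libraries each (limma adjusted p up to 0.086), with a list median of 0.63. Neither was called without controls 2 and 5.

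Long noncoding RNAs fell. Of the 7 tested, 5 (71.4%) were called lower and 1 (14.3%) higher, beside 13.7% and 10.5% of all genes, with a median of -1.8. With controls 2 and 5 left out, 4 were called lower. Malat1 (chr19:5795690-5802672), an abundant RNA of nuclear speckles, lay at 369, 250, 322 and 572 in the controls and at 143, 93.8, 89.3 and 77.9 in Ftl1KD. The highest Ftl1KD library was below the lowest control, and the difference was -1.87 ± 0.23 (limma adjusted p = 5.5e-06). Meg3 (chr12:109541001-109571726), an imprinted RNA of neurons, lay at 273, 128, 116 and 206 in the controls and at 63.3, 62.2, 51.0 and 48.5 in Ftl1KD. Its difference was -1.59 ± 0.25 (limma adjusted p = 8.7e-05). Miat (chr5:112213228-112229395), another nuclear RNA of neurons, fell by 2.45 and had 147 reads in the controls and 15 in Ftl1KD. Snhg11 (-1.8), a host gene of small nucleolar RNAs, and the imprinted antisense RNA Kcnq1ot1 (-1.91) fell, while 2900097C17Rik rose by 1.02. These last 2 calls were lost without each of 5 and 4 libraries (limma adjusted p up to 0.17). As the reads came from nuclei, a lower share of nuclear RNA in a library and a lower amount of these transcripts cannot be told apart.

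Of tested splicing and chromatin genes 23.1% and 35.3% were called lower, beside 13.7% of all genes. The shares called higher were 7.69% and 5.88%, beside 10.5% of all genes. Of 13 tested splicing genes 3 were called lower, the helicase Ddx17 (-1.63), the RNA-binding protein Celf1 (-1.81) and the speckle scaffold Srrm2 (-1.61), and Hnrnpk (0.83) was called higher, with a median of -0.34. Of 17 tested chromatin genes 6 fell, among them the remodeller Chd6 (-1.78), the acetyltransferase adaptor Trrap (-1.34) and the histone methyltransferase Kmt2a (-1.33), and the histone variant H3f3a rose by 1.18. Their median was -0.93. The 12 chromatin genes with a transcript over 4 kb had a median of -1.01 and the 5 shorter ones a median of 0.78. Without controls 2 and 5, 0 members of both lists were called (list medians -0.29 and -0.44). All 11 calls kept their direction, in libraries that had also taken part in choosing them. Calls of Hnrnpk, Trrap, Kmt2a and H3f3a were lost without at least 1 library (limma adjusted p up to 0.16).

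Receptor genes of the synapse fell. Of 8 tested glutamate and GABA receptor genes 6 were called lower, beside 13.7% lower among all genes, with a median of -1.22. Grin1 (chr2:25291181-25319187), the obligatory subunit of NMDA receptors, lay at 59.5, 54.0, 41.2 and 64.4 in the controls and at 24.9, 18.0, 21.9 and 16.2 in Ftl1KD. The groups were apart, at a difference of -1.39 ± 0.27 (limma adjusted p = 0.00054). Its partner subunits Grin2a (-1.48) and Grin2b (-1.24), the AMPA receptor subunit Gria1 (-1.05), the GABA-B subunit Gabbr1 (-1.21) and the presynaptic glutamate receptor Grm7 (-1.36) fell too. With controls 2 and 5 left out, 1 receptor gene was called lower, at a list median of -1.0. Grin2a lay at 21.7, 19.4, 11.2 and 36.8 in the controls and at 7.67, 5.41, 5.47 and 8.82 in Ftl1KD. The call of Grin2a was lost without control 5 (limma adjusted p = 0.075), and those of Gabbr1 and Grm7 without any of 2 and 4 libraries (up to 0.12).

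Channels, scaffolds and adhesion genes lay below 0 in the same way. All 7 tested ion channels were below 0 and 4 (57.1%) were called lower, beside 13.7% of all genes. The called ones included the potassium channel Kcnc1 (-1.68), the sodium channel Scn8a (-1.17) and the calcium channel Cacna1e (-1.13). Of 10 tested postsynaptic scaffolds 3 (30%) fell, among them the spine exchange factor Kalrn (-1.67) and Ank3 (-1.26), which assembles the axon initial segment. Of 16 tested adhesion genes 5 (31.2%) fell and 1 (6.25%) rose, beside 13.7% lower and 10.5% higher among all genes. Adgrl1, the latrophilin receptor, lay at 19.8, 31.9, 28.1 and 35.1 in the controls and at 5.75, 3.61, 9.11 and 5.88 in Ftl1KD. Its difference was -2.09 ± 0.37 (limma adjusted p = 0.00025). The neurexin Nrxn3 (-1.34), the teneurin Tenm2 (-1.31), the phosphatase receptor Ptprs (-0.80) and Csmd1 (-1.22) fell, whereas the axonal adhesion molecule Cntn1 rose by 1.37. Without at least 1 library the calls of Kcnc1, Scn8a, Cacna1e, Ank3, Csmd1 and Cntn1 were lost (limma adjusted p up to 0.22). Without controls 2 and 5, 1 channel, 1 scaffold and 2 adhesion genes were called lower, at list medians of -0.64, -0.73 and -0.58.

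Of 33 tested genes of synaptic vesicles 4 (12.1%) were called higher and 7 (21.2%) lower, beside 10.5% and 13.7% of all genes. The share called higher was thus near that of all genes. The list median was -0.34 (2 higher and 0 lower without controls 2 and 5, at a median of -0.24). Among the higher ones were the SNARE partner Napb (2.12), the SNARE Stx1a (1.62) and the vesicle GTPase Rab3c (1.19). Among the lower ones were the active zone proteins Unc13a (-1.84), Pclo (-1.61) and Bsn (-1.44). Unc13a lay at 29.3, 6.45, 20.6 and 29.3 in the controls and at 0.959, 6.31, 5.47 and 8.82 in Ftl1KD, so that control 2 was below Ftl1KD 5. Other lower members were the vesicular glutamate transporter Slc17a7 (-1.35), synapsin Syn2 (-0.97), the endocytic GTPase Dnm1 (-0.94) and Syp (-0.68). Napb alone of these 10 genes kept its call without each library in turn, and the others reached limma adjusted p of up to 0.23. Over the 74 tested genes of the receptor, channel, scaffold, adhesion and vesicle lists together, 25 (33.8%) were called lower and 5 (6.76%) higher, with a median of -0.63.

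Genes of mature neurons lay lower in part. Of 24 tested 8 (33.3%) were called lower, beside 13.7% of all genes, with a median of -0.50. Among them were the calcium release channel Ryr2 (-1.33), the calcium pump Atp2b1 (-1.17) and the neurite protein Ncdn (-1.05). With controls 2 and 5 left out, 0 were called and the median was -0.38. Of 3 tested immediate early genes, whose transcription follows neuronal activity, 2 fell. Arc (chr15:74669083-74672570) lay at 25.5, 38.3, 11.2 and 41.4 in the controls and at 2.88, 5.41, 7.29 and 4.41 in Ftl1KD. The groups did not overlap, at a difference of -2.23 ± 0.43 (limma adjusted p = 0.00054), and without controls 2 and 5 it was -1.64 (limma adjusted p = 0.12). Egr1, an activity-induced transcription factor, fell by 1.39, a call lost without any of 4 libraries (limma adjusted p up to 0.15).

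Further genes with the smallest p in each direction fell outside these lists or stood in marker lists. The receptor phosphatase Ptprz1 and Dbi, which carries acyl-CoA and is abundant in glia, rose by 1.75 and 1.82. Among the lower genes were the Ras exchange factor Rasgrf1 (-1.43), the chemokine Cx3cl1 (-1.20), the cilium protein Ahi1 (-1.52), the ubiquitin ligase Rnf112 (-1.84), the actin-oxidising enzyme Mical2 (-1.72), the kinase Matk (-1.71), polycystin Pkd1 (-1.78) and the vesicle cargo protein Clstn1 (-1.30). Trank1 lay at 67.0, 60.9, 69.3 and 62.7 in the controls and at 22.1, 15.3, 23.7 and 22.0 in Ftl1KD and fell by 1.61. Leng8 fell by 2.06.

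Families were also read off the gene symbols, and these were chosen after their values had been seen. All 6 tested 14-3-3 genes, adaptors that bind phosphorylated proteins, were above 0 and 4 were called higher, Ywhaz (0.97), Ywhaq (1.44), Ywhab (1.20) and Ywhae. Of 11 tested Rab GTPases of membrane traffic 4 were called higher, Rab11a, Rab1, Rab7 and Rab3c, with a median of 0.51. Among 40 tested solute carriers 5 were called higher and 5 lower, beside 10.5% higher and 13.7% lower among all genes, with a median of -0.04. Of the calls in these families, those of Ywhae, Rab1, Rab7, Rab11a and Rab3c were lost without at least 2 libraries (limma adjusted p up to 0.19).

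**Figure D3:**
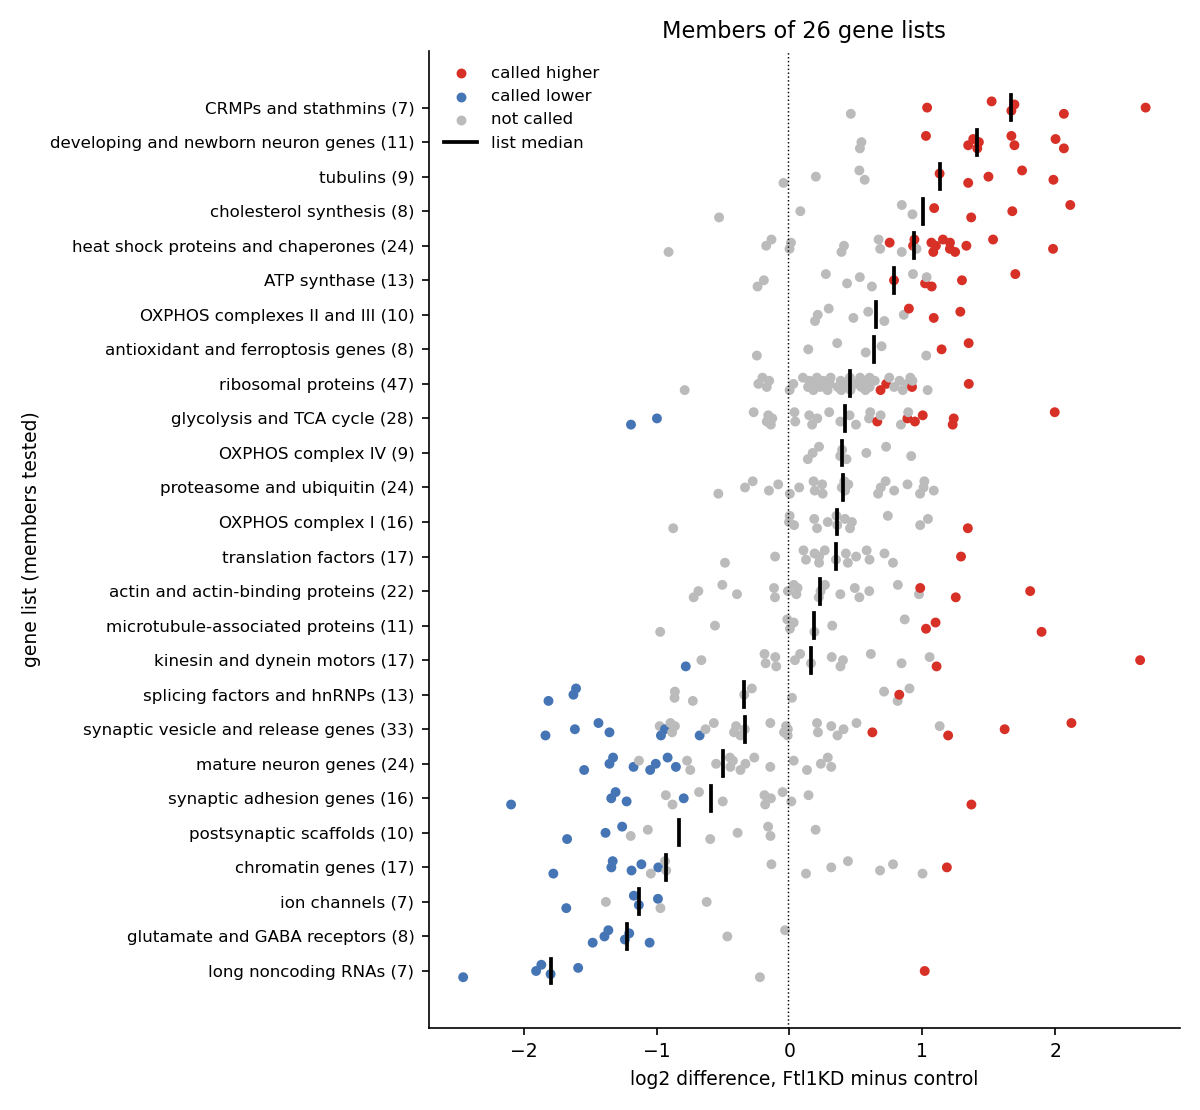
Each row is a gene list with the number of members tested, each point the log2 difference, Ftl1KD minus control, of 1 member, red where called higher, blue where called lower and grey where not called, with the list median as a bar and the median of all genes as a dotted line. List medians run from 1.67 for CRMPs and stathmins to -1.8 for long noncoding RNAs.

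The difference followed the length of the transcript. Over 1458 genes with an annotated position, Spearman's rho across genes was -0.384 with transcript length, -0.188 with the genomic span, -0.348 with the GC content of the transcript and 0.050 with the mean count. Genes are not independent replicates and all values come from the same 8 libraries, so these are descriptions. The relation between length and GC content was not measured. The 92 genes with transcripts under 1 kb had a median difference of 0.39, with 9 called higher and 2 lower. The 296 genes of 1 to 2 kb had a median of 0.25, the 584 of 2 to 4 kb a median of 0.06 and the 371 of 4 to 8 kb a median of -0.39. Of the 115 genes over 8 kb 3 were called higher and 46 (40.0%) lower, with a median of -0.93. The median over 8 kb was -0.81 without controls 2 and 5.

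**Figure D4:**
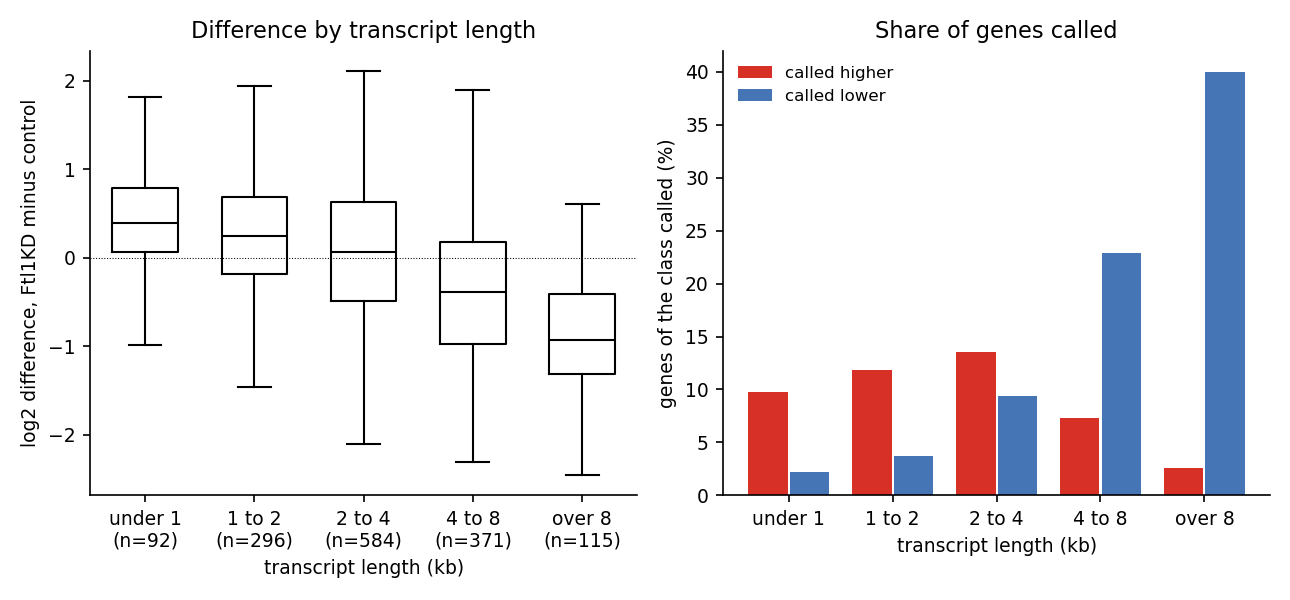
Left, log2 difference (Ftl1KD minus control) by transcript length in kb, with the median, quartiles and whiskers to 1.5 times the interquartile range; right, the share of genes in each class called higher (red) or lower (blue). The share called lower rises from 2.17% under 1 kb to 40.0% over 8 kb.

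Transcript length was then set beside the genomic span. Among genes spanning under 30 kb, those with transcripts under 4 kb had a median of 0.18 (760 genes) and those over 4 kb a median of -0.49 (138 genes). Among genes spanning over 30 kb the medians were 0.19 (212 genes) and -0.59 (348 genes). At a given transcript class the medians of short and long genes were 0.18 and 0.19, and -0.49 and -0.59. Tubulin transcripts had a median length of 1.87 kb, whereas tested receptor transcripts had 6.80 kb, channels 8.23 kb and scaffolds 8.17 kb. Complex I, complex IV, ribosomal protein and proteasome list transcripts had median lengths of 1.165, 0.659, 0.975 and 1.673 kb. Of all tested genes with transcripts under 1 kb 78.3% were above 0, and of those of 1 to 2 kb 65.9%. Of the vesicle list, the 19 members under 4 kb had a median of -0.01 and the 14 longer ones a median of -0.76. Long members did not all fall: the 3 CRMPs with transcripts over 4 kb had a median of 2.06, and Map1b, at 11.8 kb, rose. The part of RNA length in these differences was not tested further.

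Markers of cell types moved too, and their part in the results above was not tested. In pooled nuclei, fewer nuclei of a type and less RNA in each cannot be told apart. The nuclei were sorted for NeuN, so the sums below do not measure the cell types of the tissue. Of 5 tested neuronal markers 1 rose (Tubb3) and 1 fell (Slc17a7), and the sum of the 8 listed was 211 to 253 normalized counts in the controls and 231 to 281 in Ftl1KD. Summed dentate granule cell markers were lower, 77 to 130 against 34 to 55, and the 1 tested, the synaptic organiser C1ql2, fell by 1.49. For CA1 the sums overlapped, 54 to 94 against 36 to 73. Of 3 tested CA1 markers Fibcd1 fell by 1.47, and those not called were at 0.74 and -0.39. Interneuron sums were 50 to 84 in the controls and 89 to 102 in Ftl1KD. Of 3 tested interneuron markers Gad1, which makes GABA, rose by 1.49, and those not called were at 0.50 and -0.36. Of the 10 interneuron markers under the limit for testing, 7 had a higher and 3 a lower mean in Ftl1KD.

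Among glial markers, the 12 of oligodendrocytes summed to 53 to 112 in the controls and 16 to 35 in Ftl1KD. Their myelin genes Mbp and Cnp fell by 1.87 and 1.88, the latter with overlapping groups and a call lost without any of 4 libraries (limma adjusted p up to 0.21). The 8 precursor markers summed to 13 to 28 against 51 to 77, with Ptprz1 called higher and Olig1 at 1.4 not called (limma adjusted p = 0.052). Of the 6 precursor markers under the limit for testing, 5 had a higher mean in Ftl1KD and 1 was at 0 reads. Their reads were few, with 0 in the controls and 3 in Ftl1KD for Pdgfra, 3 and 3 for Cspg4, and 0 and 1 for Gpr17. Of 9 tested astrocyte markers 1 rose, the glutamate transporter Slc1a3, which lay at 9.44, 4.03, 3.75 and 5.02 in the controls and at 19.2, 20.7, 29.1 and 32.3 in Ftl1KD. Apoe was at 0.59 (limma adjusted p = 0.054), and the sum of the 16 was 243 to 352 against 342 to 372. Of the 7 astrocyte markers under the limit for testing, 4 had a higher and 3 a lower mean in Ftl1KD. Gfap averaged 11 normalized counts in the controls and 4.80 in Ftl1KD, Aqp4 0.98 and 2.74, and Aldh1l1 2.72 and 9.32. Microglia summed to 8 to 23 against 1 to 12, and 0 of their 12 markers were abundant enough to test. For CA3 the sums were 32 to 37 against 12 to 35, for endothelial and mural cells 32 to 75 against 33 to 49, with 6 of 12 markers at 0 reads in all 8 libraries, and for blood cells 0 to 2 against 0. Ttr of the choroid plexus varied from 4.51 to 164 within Ftl1KD and from 7.26 to 76.8 within the controls.

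The other experiments of the series give levels for the same genes in libraries that were normalized apart, as RPM, reads scaled to a common total without Rn45s. Old wild-type mice of 18 months, without virus, had 2 libraries. Of the 154 genes called higher in Ftl1KD, the old wild-type libraries were below the range of Ftl1KD for 137, and their median was nearer to the controls than to Ftl1KD for 135. Of 199 genes called lower they were above the range of Ftl1KD for 119 and nearer to the controls for 135. These genes were chosen by the values of the same Ftl1KD libraries, so that an outside group tends to lie on the side of the controls. The shares over all genes tested were not taken, and nothing is concluded from these counts. Tubb2b had medians of 538 in the controls, 2318 in Ftl1KD and 47.0 in old wild-type mice. Dpysl5 had 222, 1151 and 28.2, and Fabp7 had 96.7, 628 and 0.491. The control libraries thus lay between the old wild-type and the Ftl1KD libraries for these 3 genes. Malat1 had medians of 5456, 1527 and 18930, and Meg3 of 2521, 943 and 14530, again with the controls between. For Grin2a the order was another, 313 in the controls, 109 in Ftl1KD and 190 in old wild-type mice. The old wild-type median was above that of the controls for 78 of the 199 lower genes and 44 of the 154 higher ones. The order of Malat1 and Meg3 was thus not that of most lower genes. Ftl1 had 722 in the controls, 1883 in Ftl1KD and 523 in old wild-type mice. No test was run across the separately normalized tables.

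**Figure D5:**
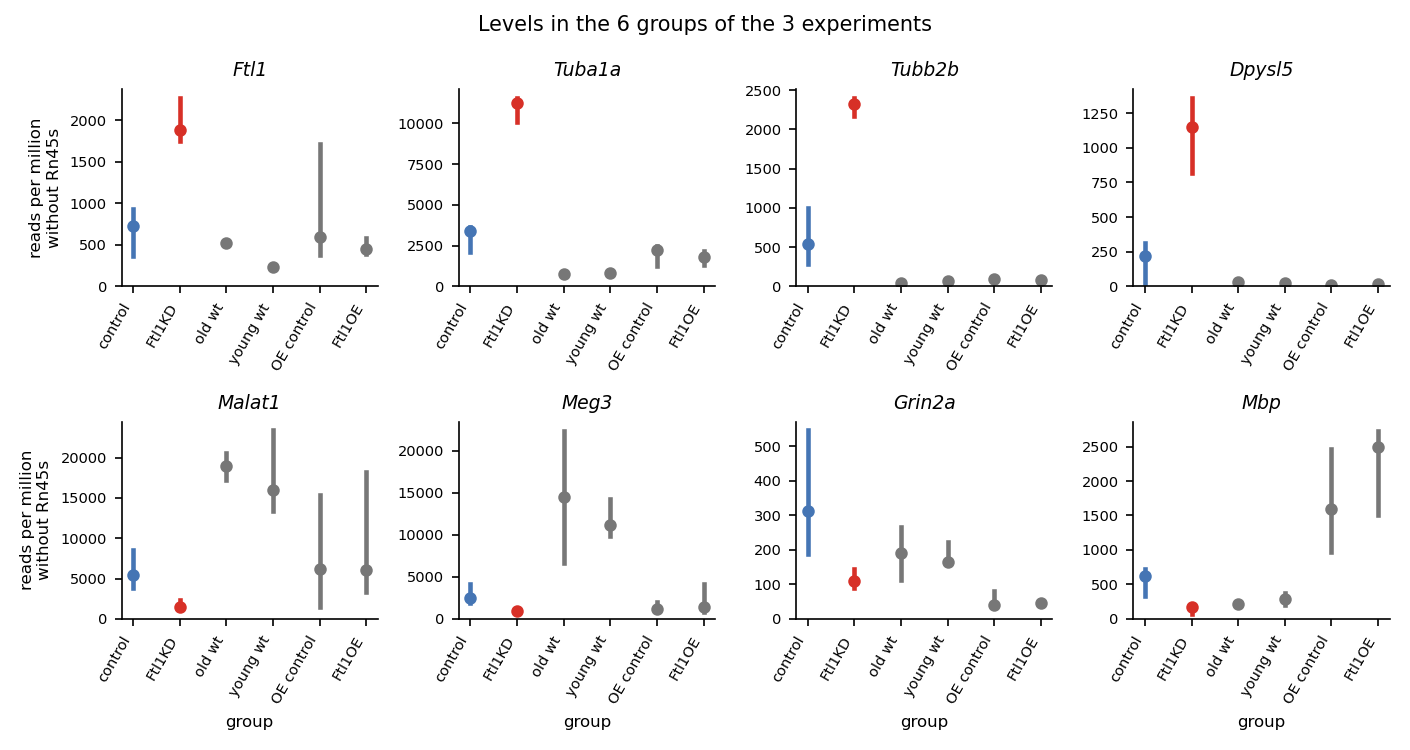
RPM without Rn45s, on linear axes from 0, of 8 genes in the 6 groups of the series, with the median as a point and the range over libraries as a line. Control, Ftl1KD and old wild-type mice (old wt) were 18 months old. Young wild-type mice (young wt, without virus), OE control and Ftl1OE mice were 3 months old. OE control and Ftl1OE mice had received virus with GFP or with Ftl1 for overexpression. Ftl1KD (red) is above every other group in the medians of Ftl1, Tuba1a, Tubb2b and Dpysl5, and the control group (blue) is above the wild-type groups for the same 4 genes.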

How the data were processed

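RNA of sorted neuronal nuclei was measured in 8 libraries, 4 for each label. The authors aligned reads with STAR to mm10, counted genes with RSEM and normalized them with DESeq2, and the annotation release is not given in the sources used here. For library preparation the methods name Smart-seq2 in modified form, whereas the sample records name a strand-specific polyA kit. The deposited values are normalized counts, a signal equal to reads divided by a size factor for each library. Whole reads were recovered for 100% of values (within 0.1 read). The deposited log2 fold changes with their errors, test statistics (a score) and p-values are the authors' own comparison and were not used, and 0 columns of libraries were left unused.

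Genes with a mean of at least 10 were tested with limma 3.58.1 (R 4.3.3, trended prior variance) on log2(normalized count + 1), with Benjamini-Hochberg adjustment over 1460 genes and a threshold of 0.05. The added 1 makes the differences of low genes smaller. edgeR 4.0.16 and DESeq2 1.42.0 on the recovered reads, other pseudocounts (0.5 and 5), filters, scalings, a replicate block and leaving out libraries were alternatives. Within each group, libraries differed by more than counting error, so none was a copy. On simulated data limma, edgeR and DESeq2 were tested with known changes. Positions and lengths came from GENCODE M21 (GRCm38) for 1458 of the 1460 genes, 31 of them by synonym, and promoters from RefSeq (GRCm38.p6). The labels do not say whether each library was 1 animal, so p-values measure the spread between these libraries. Plots used Python 3.11.15, matplotlib 3.10.9 and numpy 2.4.6.

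Members and lists were chosen with earlier results of these data known. Named were Ftl1 and Fth1, in each direction the 15 genes with the smallest p among called genes whose groups did not overlap, in each list up to 4 called members in each direction and up to 3 abundant others, the 5 genes with the highest mean, and marker genes, and the text gives those of most use. Genes listed only by family were chosen after their values were seen. Some genes that the rule names are not reported here.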

Additional observations from a re-analysis of the deposited data

Results flagged for a closer look

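Among 274 groups of 4 libraries, 1 library stood apart from the other 3 in 18, by the ratio of its gap to the group's range (Dixon's test), where chance gives about 1 in 20 groups. The highest control library stood apart for Crmp1 (84.3 normalized counts), Stmn3 (92.8), Ptprs (106), Atp5a1 (101), 2900097C17Rik (35.9) and Ttr (76.8), and the lowest for Hspd1 (1.87). In Ftl1KD the highest library stood apart for Dynlt1b (36.4), Rtn1 (226), Csmd1 (22.0) and Ndufa10 (35.3). The lowest stood apart for Mapre2 (26.2), Mllt11 (29.2), Scn8a (7.35), Sdha (25.5), C1ql2 (8.82), Mical2 (5.88) and Pkd1 (6.31).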

How the results depend on the processing

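The difference of Ftl1 kept its sign and its side of the threshold under every alternative that tested it, from 1.15 without the 2 deepest controls to 1.61 without control 3 (1.21 to 1.61 over single libraries left out); it was under the limit of a mean of 100. With a mean of at least 30 there were 104 calls (54 higher, 50 lower), and with a mean of at least 100 there were 18 (12 and 6), as fewer genes were tested. Without controls 2 and 5, which also leaves 2 controls in place of 4, there were 112 calls (70 and 42), of which 104 were among the 354. limma with voom weights gave 185 higher and 95 lower calls, a share of 66.1% higher where the reported fit has 43.5%. With each library left out in turn, calls numbered 235 (without control 5) to 439 (without control 3), 100 (without Ftl1KD 5) to 206 of them higher and 118 (without control 5) to 233 lower. edgeR called 388 genes and DESeq2 348, sharing 337 and 328 of the 354. The replicate block gave 173 calls (80 higher, 93 lower). The deviations of libraries with the same number correlated at -0.034, -0.020 and -0.052, which showed no pairing by number. With so few reads a shared preparation could go unseen, so pairing is not excluded. All 128 called genes named kept their direction under each alternative that tested them, and 80 kept their call without each library in turn. The highest adjusted p among the other 48 was 0.225 (limma). These alternatives reuse libraries that chose the calls, so the kept directions are no independent support. At these depths 22951 genes were under the limit for testing, and a gene that is not called may still differ.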
